A study of Sus scrofa with 6 samples.

Results

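Genes of phosphatidylinositol metabolism were compared between 2 genotypes of whole pig embryo: homozygotes for both of the VRTN quantitative trait nucleotides (QQ), and the wild type (WT). The members were the rows of the deposited expression table whose best protein match is described with the words phosphatidylinositol, phosphoinositide or inositol polyphosphate. The wording of the descriptions alone picked them, and 114 of the 20523 rows matched. These 114 rows, each an Ensembl transcript, stood for 80 gene names, because several genes are split over more than 1 row. Of them 85 rows, from 71 genes, had enough reads to be tested, among 13957 tested rows in the whole table.

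Messenger RNA was sequenced from 3 QQ and 3 WT embryos, each embryo a library of its own, and all from the Large White breed. The embryos were collected at 17.5 to 18.0 days post coitum, when somites are being laid down, and were genotyped from their extra-embryonic tissue. VRTN is a gene known in pigs for its association with vertebra number. The labels name no litter or dam, so every p-value measures the spread between these 6 embryos only. These were whole embryos, in which fewer cells of a type and less RNA per cell cannot be told apart.

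Phosphatidylinositol is a membrane lipid whose inositol ring can be phosphorylated at several positions, and each phosphorylated form marks a different membrane of the cell. Kinases add the phosphates and phosphatases remove them. Phospholipases C split the lipid into diacylglycerol and soluble inositol phosphates, and transfer proteins carry new phosphatidylinositol between membranes. Class I 3-kinases act downstream of growth factor receptors, and the lipid they make recruits PDPK1 and AKT to the plasma membrane. Class III 3-kinase serves endosomes and autophagy. A glycosylated form of the same lipid anchors proteins to the outer cell surface.

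The libraries held 12.2 to 13.5 assigned reads in units of 1000000. VRTN itself had 2, 0 and 1 reads in the QQ libraries and 0 reads in each WT library, which is too few to check the genotype labels. On the first principal component, with 56.5% of the variance, QQ replicates 1 to 3 stood at -11.49, -30.29 and -31.34 and WT replicates 1 to 3 at 9.32, -1.44 and 65.24. The groups did not overlap there, and WT replicate 3 was the farthest from the rest. The somite markers MEOX1 and TCF15 were present in every library, at means of 22.8 and 14.1 RPKM (reads per kilobase of transcript and per 1000000 reads), and the 4 somite markers with a row summed to 38.0 to 50.7 RPKM in QQ and 37.6 to 44.8 RPKM in WT libraries. Red blood cell markers (7 of 9 with a row) summed to 283 to 3183 RPKM in QQ and 2139 to 7648 RPKM in WT libraries, and yolk sac and liver markers (4 of 6) to 31.4 to 566 and 38.2 to 282 RPKM in QQ and WT libraries. Heart markers (3 of 5) summed to 475 to 609 RPKM in QQ and 583 to 828 RPKM in WT libraries, and endothelial markers (2 of 4) to 9.22 to 11.6 and 7.62 to 10.7 RPKM in QQ and WT libraries. The heart sum includes a row taken as TNNT2 (mean 278 RPKM) whose protein description names ladinin-1. Neural tube (1 of 5), trophoblast (5 of 6) and endometrium markers (3 of 5) summed to 0.938 to 1.82, 39.1 to 51.2 and 16.8 to 19.1 RPKM in QQ libraries, against 0.916 to 1.97, 37.3 to 49.3 and 16.7 to 18.3 RPKM in WT libraries. The trophoblast sum came mostly from CDX2 (mean 26.7 RPKM) and GATA3 (12.1 RPKM), with ELF5 at 0.630 RPKM. The endometrium sum came mostly from FOXA2 (8.76 RPKM) and SPP1 (8.61 RPKM), with MUC1 at 0.250 RPKM. These sums do not show that either tissue was present. No marker with a row was at 0 in all libraries, and their part in the results was not tested.

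No member passed the test in either direction. edgeR's quasi-likelihood test, with Benjamini-Hochberg adjustment over all 13957 rows and a threshold of 0.05, called 0 of the 85 members higher and 0 lower in QQ embryos, and the share called over all rows was 0% in each direction. The smallest adjusted p among the members was 0.233, which was also the smallest over the whole table. At an unadjusted p under 0.05 there were 14 members higher in QQ (16.5%, against 11.0% of all tested rows) and 3 lower (3.53%, against 9.29%). DESeq2, run on the same counts, called 0 members, with a smallest adjusted p of 0.0744 for PIK3C2A, while it called 0.738% of all rows higher and 0.0573% lower.

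As a group the members were balanced. In QQ embryos 43 tested members had a higher value than in WT embryos (50.6%, against 49.7% of all rows) and 42 a lower one. The median log2 fold change, QQ over WT, was 0.019, against -0.003 over all tested rows. When libraries were scaled by their read totals alone the balance moved: 59 members had higher values (69.4%, against 60.5% of all rows), 20 were higher at an unadjusted p under 0.05 (against 14.9% of all rows) and 1 was lower (against 4.19%), and the medians were 0.114 for the members and 0.094 for all rows. Of the members, 40 (47.1%) had a log2 fold change within 0.2 of 0, against 41.3% of all rows.

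In RPKM, every QQ library lay above every WT library in 20 members, from 17 genes (23.5%, against 18.8% of all rows). In 7 every QQ library lay below every WT library (8.24%, against 9.07%). Here and below, separate groups and the lowest or highest library were judged on RPKM, which is scaled by read totals alone. That scaling differs from the one behind the fold changes, and with it 60.5% of all rows had higher values in QQ embryos. WT replicate 3 was the lowest of the 6 libraries in 18 of those 20 rows, and it was the lowest in 87.0% of all rows whose groups were separated in that direction. Over the 85 members WT replicate 3 was the lowest library in 40 (47.1%, against 41.4% of all rows) and the highest in 20 (23.5%, against 25.3%). The member median, as a log2 deviation from each row's mean over the libraries, was 0.01, 0.01 and 0.05 in QQ replicates 1 to 3 and 0.01, -0.02 and -0.10 in WT replicates 1 to 3.

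The 14 members higher at an unadjusted p under 0.05 came from 12 genes, and WT replicate 3 was the lowest library in 13 of them. Without that library all 14 kept a higher value in QQ embryos, 12 stayed at an unadjusted p under 0.05, and 13 had a smaller fold change. The 14 rows were chosen by their values in these same libraries, so these counts follow in part from that choice. Their median log2 fold change was 0.65 with all 6 libraries and 0.42 without WT replicate 3. The count also depended on other libraries: it was 7 without QQ replicate 2 and 5 without QQ replicate 3. The 3 lower members became 0 without WT replicate 3, 0 without QQ replicate 3 and 1 without QQ replicate 2, but 7 without WT replicate 2. The share of all rows at that p was not counted in these fits, so these shifts cannot be set against the whole table.

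**Figure D1:**
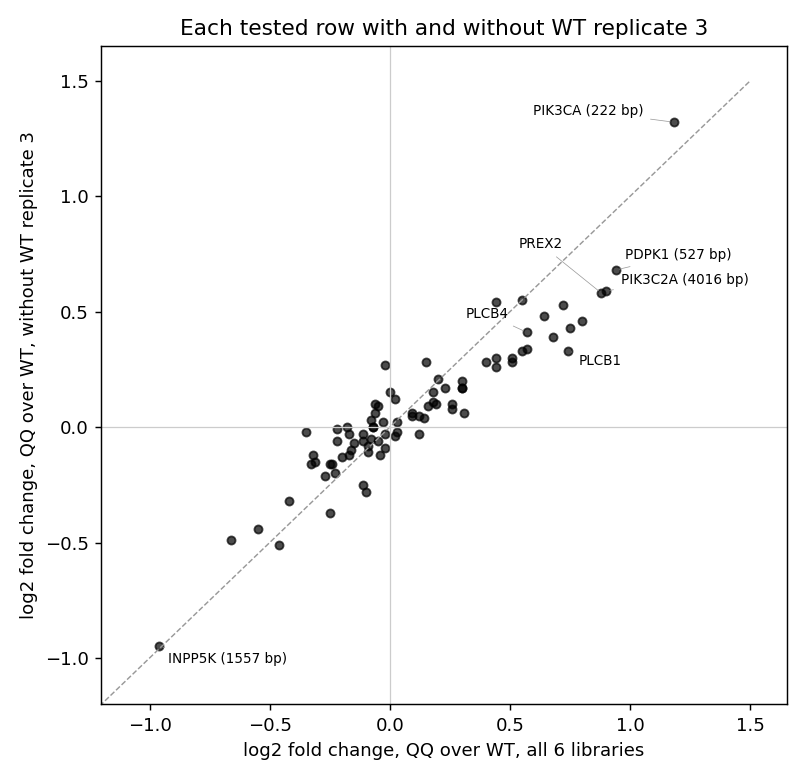
Log2 fold change, QQ over WT, of the tested members with all 6 libraries (horizontal axis) and without WT replicate 3 (vertical axis). The dashed line marks equal values. Most rows far to the right lie below the line, such as PIK3C2A at 0.90 and 0.59, while the short PIK3CA row lies above it at 1.18 and 1.32.

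Catalytic subunits of the 3-kinases mostly had higher values in QQ embryos. Of 9 tested rows 7 were higher, 3 of them at an unadjusted p under 0.05, and the median log2 fold change was 0.44, or 0.28 without WT replicate 3. Over all tested rows 49.7% were higher, and 11.0% were higher at an unadjusted p under 0.05. The same shares apply to the roles below. PIK3C2A, PIK3CA and PIK3CB had 2 of the tested rows each, and the 3 rows came from PIK3C2A and PIK3CA alone. PIK3C2A, the class II alpha enzyme, which works in endocytosis, had 18.9, 27.3 and 22.5 RPKM in QQ replicates 1 to 3 and 12.9, 16.0 and 5.68 RPKM in WT replicates 1 to 3 (transcript ENSSSCT00000024535, 4016 bp). All 3 QQ libraries were above all WT libraries, and WT replicate 3 was far below the other WT embryos. The log2 fold change was 0.90 ± 0.29 (SE), with an edgeR adjusted p of 0.233, and 0.59 without WT replicate 3.

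PIK3CA, the class I alpha enzyme that growth factor receptors activate, was measured by a long and a short row. The long row (ENSSSCT00000029004, 4241 bp) had 8.15, 9.67 and 9.75 RPKM in QQ libraries and 7.06, 7.07 and 4.89 RPKM in WT libraries. The groups did not overlap, with a log2 fold change of 0.44 ± 0.16, or 0.30 without WT replicate 3. The short row (ENSSSCT00000024560, 222 bp) rested on 19, 22 and 19 reads in QQ and 5, 10 and 10 reads in WT libraries. It had the smallest unadjusted p of all members, and its log2 fold change was 1.18 ± 0.34, with an edgeR adjusted p of 0.233. Here the lowest library was WT replicate 1, and without WT replicate 3 the fold change was 1.32.

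PIK3CB, the class I beta enzyme, had 2 rows, whose fold changes lay on both sides of 0. PIK3C3, the class III enzyme and the most abundant catalytic member, averaged 26.2 ± 1.60 RPKM in QQ and 23.0 ± 1.53 RPKM in WT embryos (SD, n = 3 each). Its groups were separated in RPKM only narrowly, between QQ replicate 3 at 24.6 and WT replicate 1 at 24.4 RPKM. The log2 fold change was 0.09 ± 0.11. PIK3C2B, the second class II enzyme, stood at 16.2 ± 1.37 RPKM in QQ and 14.2 ± 1.13 RPKM in WT embryos. PIK3CD and PIK3CG, class I enzymes best known from white blood cells, were barely present: PIK3CD lay between 0.177 and 0.353 RPKM over the 6 libraries and PIK3CG had 1 to 6 reads per library.

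**Figure D2:**
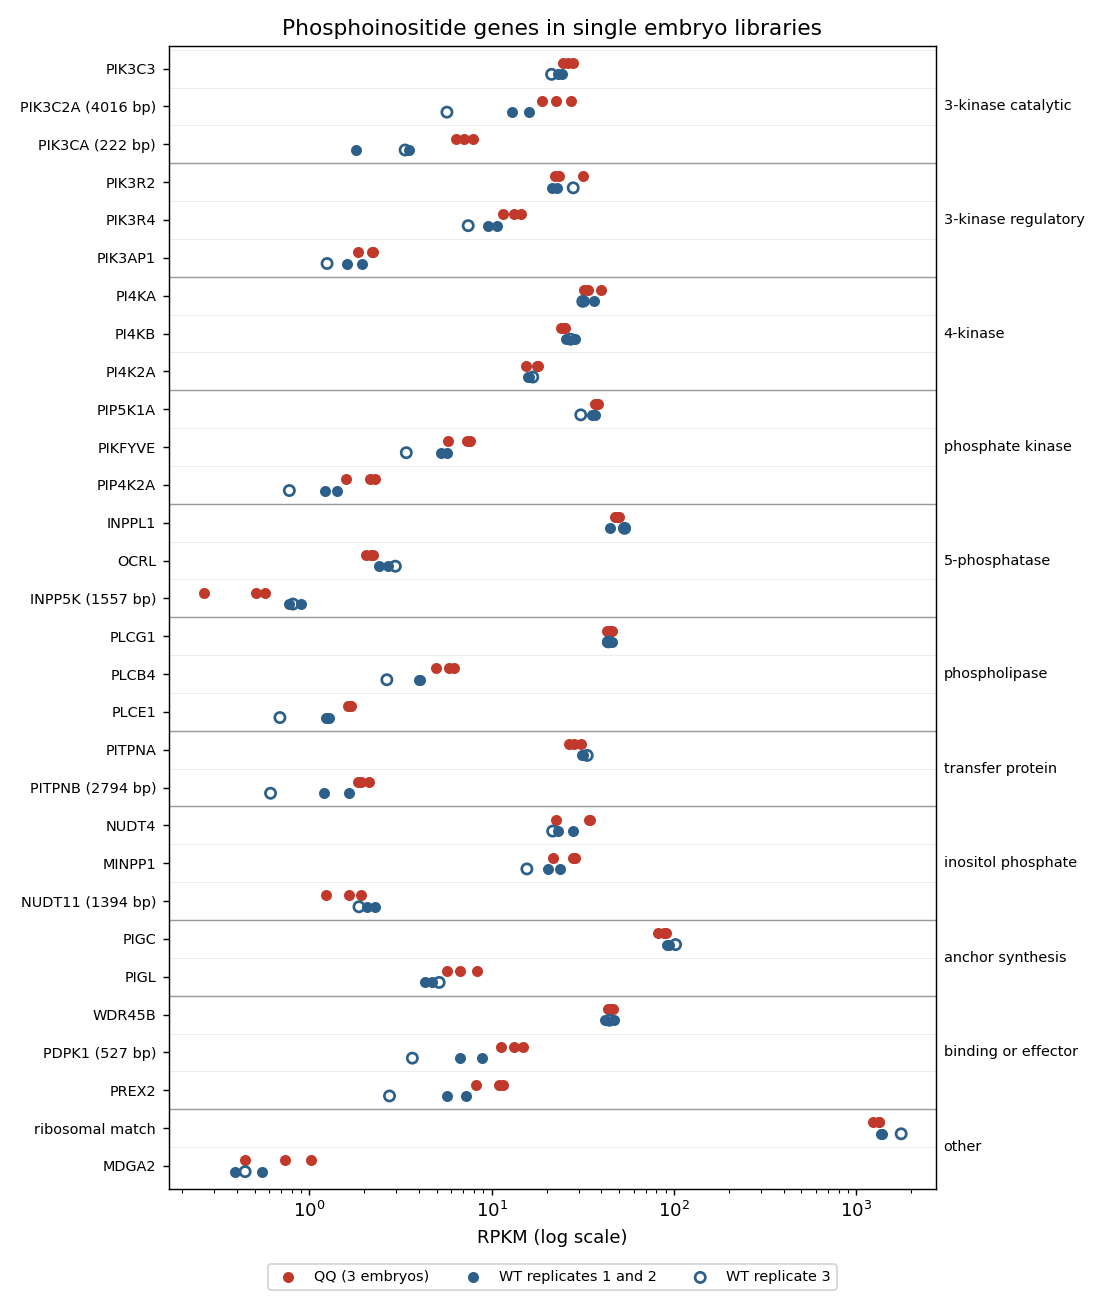
RPKM (log axis) of the named members in each of the 6 libraries, ordered by role; filled red points are QQ embryos, filled blue points WT replicates 1 and 2, and the open circle WT replicate 3. The open circle lies far to the left for PIK3C2A (5.68 RPKM) and PREX2 (2.75 RPKM), and it lies close to the other libraries for the 4-kinases.

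Among regulatory and adaptor subunits of the 3-kinases PIK3R4 alone was at an unadjusted p under 0.05. Of 8 tested rows 5 had higher values in QQ embryos, and the median log2 fold change was 0.08. PIK3R4, the partner protein that the class III kinase needs, had 11.6, 13.2 and 14.4 RPKM in QQ libraries and 9.59, 10.7 and 7.43 RPKM in WT libraries. Its groups were separate, with a log2 fold change of 0.40 ± 0.14 (edgeR adjusted p = 0.233), or 0.28 without WT replicate 3. Its partner PIK3C3, given above, had a fold change close to 0 on the same scale. PIK3R2, a subunit of the class I enzymes, was the most abundant at 25.8 ± 5.22 RPKM in QQ and 24.0 ± 3.51 RPKM in WT embryos, and its fold change took either sign depending on the scaling. PIK3AP1, an adaptor of B cell signalling, stood at 2.10 ± 0.220 and 1.60 ± 0.350 RPKM in QQ and WT embryos, a log2 fold change of 0.30 ± 0.20 with overlapping groups, or 0.17 without WT replicate 3. PIK3R1 was held by a row of which reads covered only 10.1% on average, and it stood at 1.15 ± 0.129 RPKM in QQ and 0.877 ± 0.355 RPKM in WT embryos.

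The 4-kinases, which make the first phosphorylated lipid on the Golgi and plasma membrane, had the narrowest range of fold changes of the roles with more than 1 tested row. All 4 genes were tested, their log2 fold changes ran from -0.23 to 0.02, and none reached an unadjusted p under 0.05. PI4KA averaged 35.2 ± 4.04 RPKM in QQ and 33.3 ± 2.62 RPKM in WT embryos. PI4K2A averaged 17.1 ± 1.35 RPKM in QQ and 16.2 ± 0.476 RPKM in WT embryos, and the sign of both changed with the scaling. PI4KB, the Golgi enzyme, had 24.9, 23.9 and 25.3 RPKM in QQ libraries and 25.4, 28.6 and 27.1 RPKM in WT libraries. Every QQ library was below every WT library by a narrow gap, and the log2 fold change was -0.23 ± 0.11 (edgeR adjusted p = 0.268).

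Among the kinases of phosphatidylinositol phosphates 7 of 10 tested rows had higher values in QQ embryos and the median log2 fold change was 0.11. PIP5K1A, which makes the substrate of phospholipase C, was the most abundant and had close means, 37.5 ± 0.584 RPKM in QQ and 34.4 ± 3.19 RPKM in WT embryos (log2 fold change 0.03 ± 0.10, and -0.02 without WT replicate 3). PIKFYVE, which makes the bisphosphate of late endosomes, had 5.78, 7.65 and 7.33 RPKM in QQ libraries and 5.72, 5.25 and 3.40 RPKM in WT libraries. The groups were separated only narrowly between QQ replicate 1 and WT replicate 1, and the log2 fold change was 0.44 ± 0.18, or 0.26 without WT replicate 3. With an offset for transcript length the fold change of this 10240 bp row was 0.13. PIP4K2A, a kinase of the minor monophosphate, had 1.59, 2.14 and 2.28 RPKM in QQ and 1.42, 1.22 and 0.776 RPKM in WT libraries. Its log2 fold change was 0.72 ± 0.25, or 0.53 without WT replicate 3, on a row with only 8.82% of its length covered. Its paralogue PIP4K2B, better covered and more abundant, averaged 28.3 ± 1.34 RPKM in QQ and 22.2 ± 5.07 RPKM in WT embryos (log2 fold change 0.26 ± 0.17, or 0.10 without WT replicate 3).

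**Figure D3:**
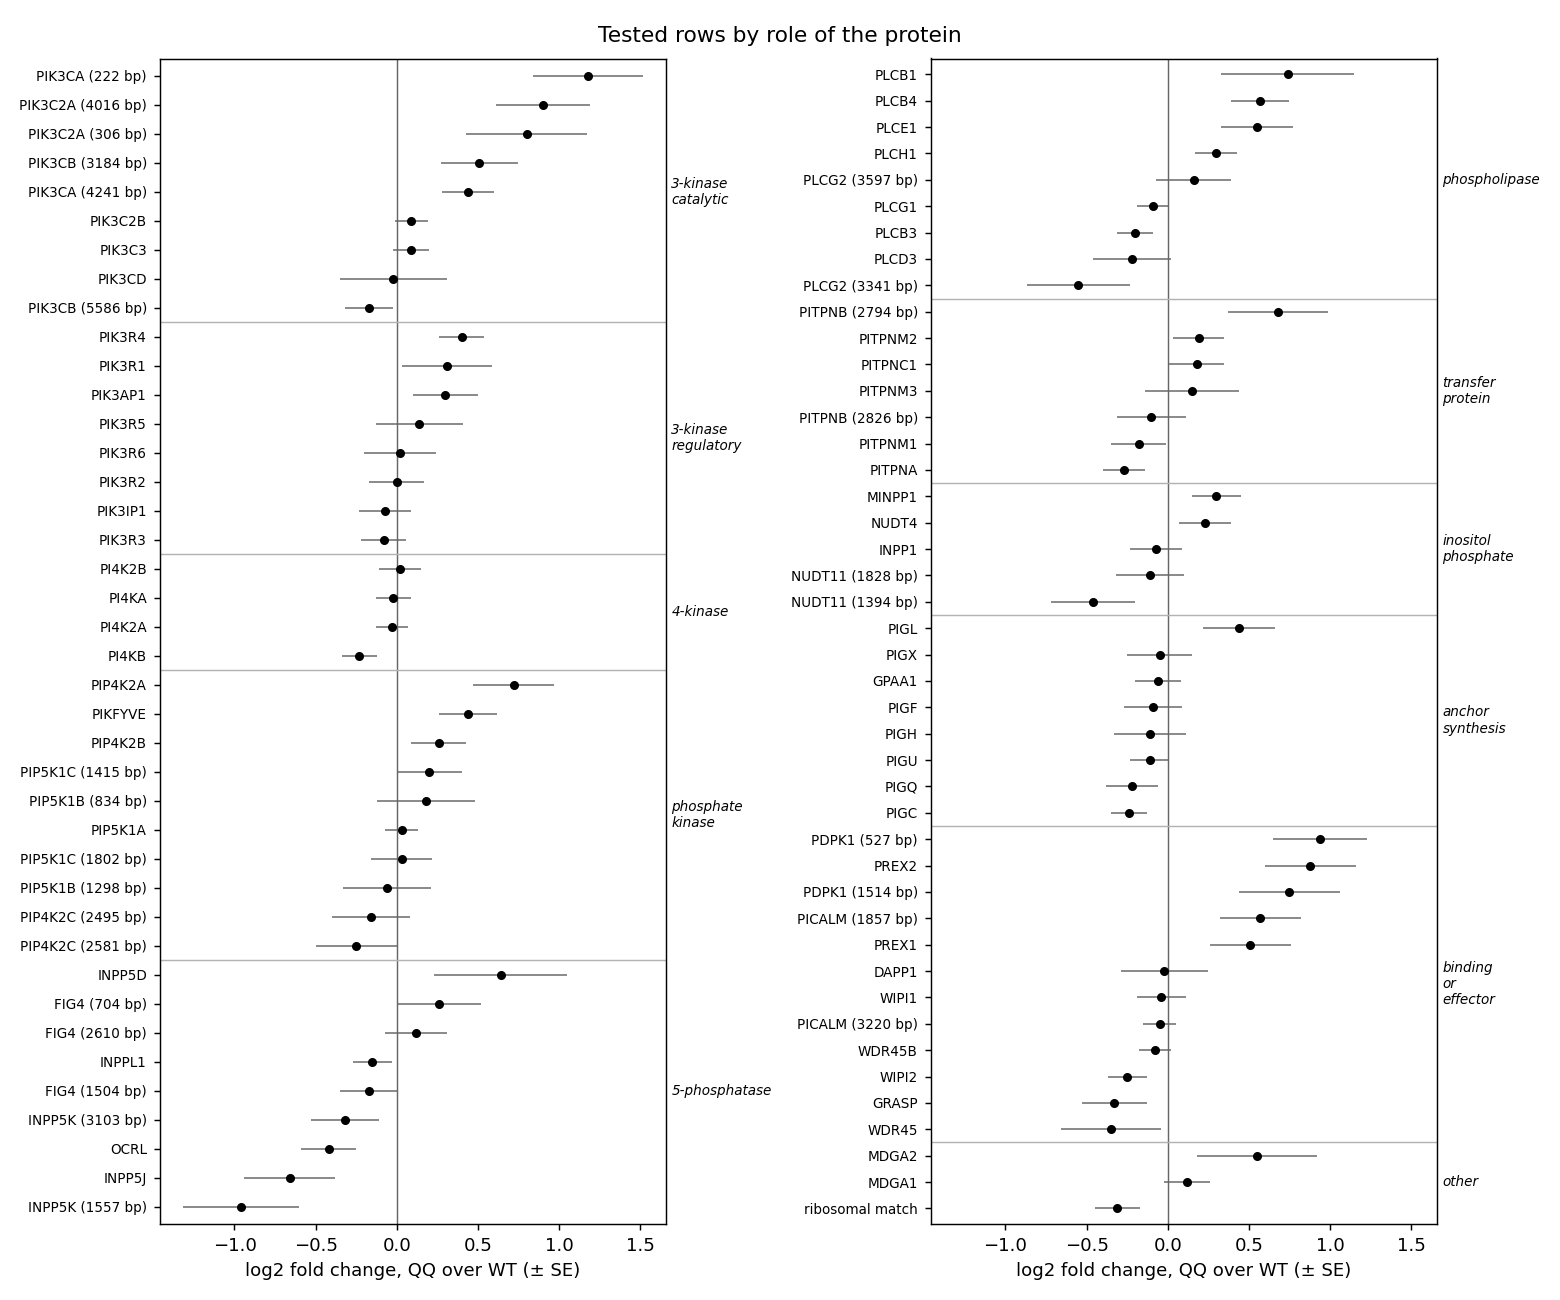
Log2 fold change, QQ over WT, with its standard error for the tested members, grouped by role; where a gene has several tested rows the row length is given. The 3-kinase catalytic rows lie mostly to the right of 0 (median 0.44), the 5-phosphatases mostly to the left (median -0.17), and the 4-kinases within -0.23 and 0.02.

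Over all tested rows 50.3% had lower values in QQ embryos, and 9.29% were lower at an unadjusted p under 0.05. FIG4 made 3 of the 5-phosphatase rows and INPP5K made 2. Of 9 tested 5-phosphatase rows 6 had lower values in QQ embryos and 3 of these were at an unadjusted p under 0.05. The median log2 fold change was -0.17, or -0.07 without WT replicate 3. OCRL, the endosomal enzyme mutated in Lowe syndrome in humans, had 2.19, 2.04 and 2.23 RPKM in QQ and 2.70, 2.40 and 2.96 RPKM in WT libraries. The groups were separate and the QQ embryos close together, with a log2 fold change of -0.42 ± 0.17 (edgeR adjusted p = 0.233), or -0.32 without WT replicate 3, on a row 17.3% covered. The short row of INPP5K, a 5-phosphatase of skeletal muscle and the endoplasmic reticulum, rested on 12, 10 and 5 reads in QQ and 15, 18 and 17 reads in WT libraries. Its log2 fold change of -0.96 ± 0.36 was -0.95 without WT replicate 3, while the longer and deeper INPP5K row had -0.32 ± 0.21, or -0.12 without that library. INPP5J, the third, had 1.06, 1.77 and 1.70 RPKM in QQ and 2.51, 1.49 and 2.63 RPKM in WT libraries, with overlapping groups and a log2 fold change of -0.66 ± 0.28. INPPL1, also known as SHIP2 and the most abundant 5-phosphatase, was close in both groups at 48.6 ± 1.12 RPKM in QQ and 50.3 ± 5.08 RPKM in WT embryos.

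Phospholipase C rows were split by isoform. Of 9 tested rows 5 had higher and 4 lower values in QQ embryos, and their median log2 fold change was 0.16. PLCB4, PLCE1 and PLCH1 were higher at an unadjusted p under 0.05, and none was lower. PLCB4, which G protein coupled receptors activate, had 4.94, 6.22 and 5.80 RPKM in QQ libraries and 4.06, 4.0 and 2.66 RPKM in WT libraries, without overlap and with a log2 fold change of 0.57 ± 0.18 (edgeR adjusted p = 0.233), or 0.41 without WT replicate 3. PLCE1, which binds Ras, was tightly grouped in QQ embryos at 1.62, 1.68 and 1.69 RPKM, against 1.28, 1.24 and 0.689 RPKM in WT embryos. Its log2 fold change was 0.55 ± 0.22, and 0.33 without WT replicate 3. With an offset for transcript length the fold change of this 10144 bp row was 0.26. PLCH1, an isoform of neural tissue, had 15.2, 19.3 and 16.6 RPKM in QQ and 14.4, 13.7 and 10.8 RPKM in WT libraries (log2 fold change 0.30 ± 0.13, or 0.20 without WT replicate 3). The most abundant isoforms had smaller fold changes: PLCG1, which receptor tyrosine kinases activate, averaged 44.3 ± 1.54 RPKM in QQ and 44.2 ± 1.45 RPKM in WT embryos, and PLCB3 averaged 36.4 ± 1.52 RPKM in QQ and 39.3 ± 3.03 RPKM in WT embryos. For PLCB1 a single embryo, WT replicate 3, stood apart: the row had 69, 60 and 62 reads in QQ and 43, 53 and 12 reads in WT libraries, and its log2 fold change of 0.74 ± 0.41 was 0.33 without WT replicate 3.

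The transfer proteins were divided. Of 7 tested rows 4 had higher and 3 lower values, and none was at an unadjusted p under 0.05. PITPNA, the most abundant, had 30.8, 26.4 and 28.2 RPKM in QQ libraries and 31.4, 31.5 and 33.4 RPKM in WT libraries. Every QQ library was below every WT library, with a log2 fold change of -0.27 ± 0.13 (edgeR adjusted p = 0.268), or -0.21 without WT replicate 3. PITPNC1 lay the other way, at 6.62 ± 0.477 RPKM in QQ and 5.49 ± 0.579 RPKM in WT embryos. The membrane-bound PITPNM1, PITPNM2 and PITPNM3 had overlapping groups and log2 fold changes of -0.18 ± 0.17, 0.19 ± 0.16 and 0.15 ± 0.29.

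Proteins that bind these lipids or act on their signal held 4 of the 14 higher rows, although 7 of their 12 tested rows had a log2 fold change below 0. With libraries scaled by read totals alone the sign turned for DAPP1 (0.08), the 3220 bp PICALM row (0.04), WDR45B (0.02) and WIPI1 (0.06). PDPK1, the kinase that activates AKT once both reach the membrane lipid, had 11.3, 14.9 and 13.2 RPKM in QQ and 6.68, 8.87 and 3.67 RPKM in WT libraries on its shorter row (ENSSSCT00000022926, 527 bp). All QQ libraries were above all WT libraries, and the log2 fold change was 0.94 ± 0.29 (edgeR adjusted p = 0.233), or 0.68 without WT replicate 3. Its longer row (ENSSSCT00000008833, 1514 bp) showed the same order, with a log2 fold change of 0.75 ± 0.31, or 0.43 without WT replicate 3. PREX2, a Rac exchange factor that the lipid of class I 3-kinase activates, had 8.17, 11.5 and 11.0 RPKM in QQ and 5.69, 7.24 and 2.75 RPKM in WT libraries. Its groups did not overlap, and the log2 fold change was 0.88 ± 0.28, or 0.58 without WT replicate 3. WDR45B and WIPI2 are propeller proteins that bind the lipid of the class III kinase during autophagy. WDR45B was close in both groups, at 44.9 ± 1.28 RPKM in QQ and 44.3 ± 2.67 RPKM in WT embryos (log2 fold change -0.08 ± 0.10). WIPI2 averaged 22.8 ± 1.23 RPKM in QQ and 25.4 ± 1.93 RPKM in WT embryos (log2 fold change -0.25 ± 0.12, groups separate, or -0.16 without WT replicate 3).

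Genes for the lipid anchor of surface proteins made 8 tested rows, of which 7 had a log2 fold change slightly below 0. None was at an unadjusted p under 0.05, and the median log2 fold change was -0.10. The sign depended on the scaling for GPAA1, PIGF and PIGX. Their log2 fold changes of -0.06, -0.09 and -0.05 became 0.04, 0.01 and 0.05 when libraries were scaled by read totals alone. PIGC, a subunit of the enzyme for the first step, was the most abundant member of all apart from a ribosomal protein match, with 88.4, 90.6 and 81.8 RPKM in QQ and 91.4, 94.0 and 102 RPKM in WT libraries (log2 fold change -0.24 ± 0.11, groups separate). PIGL, the enzyme of the second step, was the exception, at 5.71, 8.27 and 6.73 RPKM in QQ and 4.32, 4.70 and 5.15 RPKM in WT libraries. Its log2 fold change was 0.44 ± 0.22 (edgeR adjusted p = 0.271), or 0.54 without WT replicate 3.

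Enzymes of soluble inositol phosphates had 5 tested rows, 2 higher and 3 lower in QQ embryos. MINPP1, which removes phosphates from highly phosphorylated inositols, averaged 26.1 ± 3.81 RPKM in QQ and 19.9 ± 4.06 RPKM in WT embryos, with a log2 fold change of 0.30 ± 0.15, or 0.17 without WT replicate 3. NUDT4, a pyrophosphatase of inositol pyrophosphates, averaged 30.3 ± 6.75 RPKM in QQ and 24.2 ± 3.22 RPKM in WT embryos, with overlapping groups. NUDT11, a close relative of NUDT4, had lower values on its shorter row, at 1.60 ± 0.344 RPKM in QQ and 2.08 ± 0.215 RPKM in WT embryos (log2 fold change -0.46 ± 0.26). The counts are of uniquely mapped reads, so reads shared between near copies may be missing from them.

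Some matched rows were not enzymes of this lipid. The row ENSSSCT00000014615 is described as a class II 3-kinase of a bat, but its KEGG and Gene Ontology entries name the ribosomal protein S13e, and at 1298 ± 53.2 RPKM in QQ and 1504 ± 224 RPKM in WT embryos it lay far above all other members. It was counted under other and not as PIK3C2A. MDGA1 and MDGA2 are cell adhesion proteins that matched only through the words for their lipid anchor. MDGA2 stood at 0.734 ± 0.290 RPKM in QQ and 0.462 ± 0.0807 RPKM in WT embryos, with overlapping groups.

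The 29 rows that were not tested had at most 15 reads in any library, and for 9 genes no row was tested. They include PLCB2, with 8, 15 and 13 reads in QQ and 7, 9 and 4 reads in WT libraries, PIGA, PLCD4 and GPLD1. When the filter was dropped, so that all 114 rows were fitted, edgeR again called 0 members, and 16 were higher and 5 lower in QQ embryos with an unadjusted p under 0.05. The share of all 20523 rows at that p was not counted in the unfiltered fit. A floor of 3 reads corresponds to 0.111 to 0.123 RPKM for a transcript of 2000 bp. Such floors cover counting error only.

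For 13 genes more than 1 row was tested, 27 rows in all, and in 6 of these genes the rows had log2 fold changes of opposite sign. The pair of PIK3C2A rows gave 0.90 ± 0.29 and 0.80 ± 0.37, a difference of 0.10, and the PDPK1 rows differed by 0.19. The 6 genes with opposite signs were FIG4, PICALM, PIK3CB, PIP5K1B, PITPNB and PLCG2, whose rows differed by 0.24 in PIP5K1B to 0.78 in PITPNB. For PIK3CB, a class I enzyme, the 3184 bp row averaged 7.35 ± 1.33 RPKM in QQ and 4.86 ± 1.60 RPKM in WT embryos (log2 fold change 0.51 ± 0.24, or 0.28 without WT replicate 3), while the 5586 bp row averaged 5.69 ± 0.889 RPKM in QQ and 5.97 ± 0.590 RPKM in WT embryos (-0.17 ± 0.15).

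For these 6 genes the RPKM of the row with the highest fold change was divided by that of the row with the lowest, so the direction of the ratios follows from the choice of rows. For PIK3CB the ratio was 1.21, 1.37 and 1.28 in QQ and 0.966, 1.00 and 0.497 in WT libraries. For PICALM, a clathrin assembly protein, the ratio of the 1857 bp to the 3220 bp row was 0.180, 0.241 and 0.217 in QQ and 0.170, 0.151 and 0.0912 in WT libraries. For PITPNB, a transfer protein, the ratio of the 2794 bp to the 2826 bp row was 0.714, 0.736 and 0.708 in QQ and 0.383, 0.523 and 0.310 in WT libraries. For PLCG2 it was 3.03, 2.61 and 3.34 in QQ and 2.39, 1.81 and 1.39 in WT libraries, on as few as 10 reads in the lower row. In these genes every QQ ratio was above every WT ratio. The ratios overlapped between groups for FIG4, at 0.494, 0.773 and 0.722 in QQ and 0.614, 0.60 and 0.308 in WT libraries. They also overlapped for PIP5K1B, at 0.853, 1.27 and 0.838 in QQ and 1.05, 0.778 and 0.639 in WT libraries. WT replicate 3 had the lowest ratio in all 6 genes, and no test was made. A ratio between rows of 1 gene does not depend on how libraries are scaled. The PITPNB rows were only 6.88% and 6.29% covered.

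**Figure D4:**
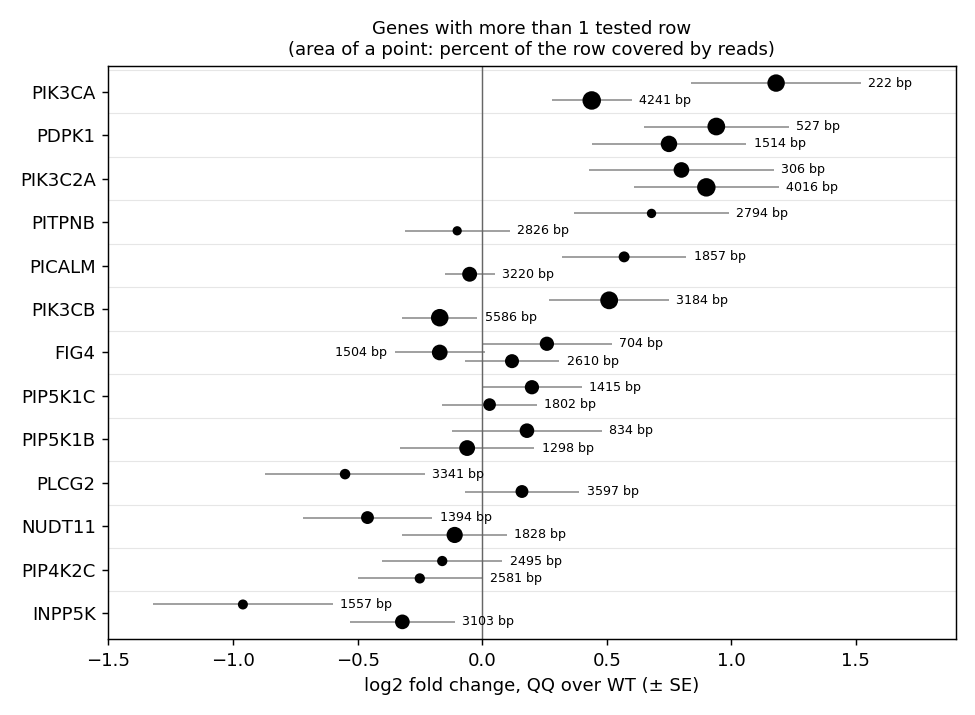
Log2 fold change, QQ over WT, with its standard error for the 27 tested rows of the 13 genes with more than 1 tested row; the area of a point follows the percent of the row covered by reads. The rows of PIK3C2A and PDPK1 lie together to the right of 0, while those of PIK3CB, PICALM and PITPNB lie on both sides of it.

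Genes around these enzymes, some of them members, were counted in 5 lists, and edgeR called 0 genes in each. In the list of class I 3-kinase and mTOR signalling 20 of 34 genes had a row and 19 were tested, 11 higher and 8 lower in QQ embryos, and the median log2 fold change was 0.07. At an unadjusted p under 0.05 there were 7 higher and 3 lower genes. The list includes 2 members already counted above. Without them 17 tested genes remained, with 5 higher and 3 lower at that p and a median log2 fold change of 0.02. Over all tested rows 11.0% were higher and 9.29% lower at that p. IRS4, an insulin receptor substrate, averaged 3.29 ± 0.854 RPKM in QQ and 1.54 ± 0.331 RPKM in WT embryos (log2 fold change 0.99 ± 0.25). RICTOR, a subunit of mTOR complex 2, averaged 6.16 ± 1.22 RPKM in QQ and 2.35 ± 1.35 RPKM in WT embryos (1.31 ± 0.39, or 0.90 without WT replicate 3). The edgeR adjusted p of both was 0.233.

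In the list of myotubularins and Sac phosphatases 15 of 26 genes were tested, 10 higher and 5 lower in QQ embryos, and the median log2 fold change was 0.12. Besides OCRL, MTMR11 had the smallest p, at 2.25 ± 0.167 RPKM in QQ and 2.79 ± 0.20 RPKM in WT embryos. At an unadjusted p under 0.05 there were 0 higher and 1 lower, the member OCRL. Genes that supply inositol and phosphatidylinositol divided evenly, 6 higher and 6 lower among 12 tested of 24, and 3 of the higher ones were at an unadjusted p under 0.05. IMPA1, an inositol monophosphatase, averaged 19.5 ± 1.37 RPKM in QQ and 13.5 ± 2.62 RPKM in WT embryos, and CDS2, which makes the lipid precursor, averaged 26.4 ± 1.66 RPKM in QQ and 19.4 ± 3.30 RPKM in WT embryos. Inositol phosphate kinases and receptors had 5 higher and 2 lower among 7 tested of 15, with 0 at an unadjusted p under 0.05. PPIP5K2 had the smallest p, at 29.3 ± 3.93 RPKM in QQ and 22.6 ± 3.88 RPKM in WT embryos. The class III complex and its endosomal effectors also divided evenly, 6 higher and 6 lower among 12 tested of 26, and 7 of these genes were members. PIK3R4 and PIKFYVE were the 2 higher genes with an unadjusted p under 0.05. The 1 lower gene was BECN1, a partner of the class III kinase, at 37.3 ± 1.02 RPKM in QQ and 41.9 ± 4.17 RPKM in WT embryos.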

How the data were processed

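Total RNA of whole embryos was made into TruSeq libraries, per the labels' protocols. The submitters' processing notes name the build Sscrofa10.2. Which aligner and counter were run, and whether strand was used, is not given in the sources used here. One deposited table was used. Per the file headers its columns are, for each transcript and library, a count of uniquely mapped reads, the percent of the length covered, and the RPKM. The deposited counts are whole numbers, with a dash for 0, and add up to the totals in the headers. The deposited RPKM could be recomputed from count, length and total to within a relative gap of 1.29e-07. The authors' percent columns were used to describe coverage alone.

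Counts were tested with edgeR 4.0.16 (R 4.3.3): TMM factors (0.933 to 1.064), quasi-likelihood fits over the 13957 rows left by the default filter (count 10, total 15), and p-values adjusted by Benjamini-Hochberg, called under 0.05. The SE of a log2 fold change was taken as its size over the root of F. Means and SDs are of RPKM over 3 embryos. Separate or overlapping groups and the lowest or highest library were also judged on RPKM, without TMM factors. With 3 against 3 libraries an exact permutation test of a single value cannot give a p below 0.1. The script was tested on simulated data.

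Member symbols were read from the deposited protein descriptions. RefSeq symbols (Sscrofa11.1), found for 47 of 114 rows, were the same in 44. Genes of the 5 lists and 8 marker lists were matched through RefSeq protein accessions. Where these gave no symbol, a KEGG pig gene number found in only 1 row was used. List genes that are members were matched by their descriptions. The members and lists were chosen with earlier results of these data known. Members were named in each role by the highest mean RPKM and the 2 smallest unadjusted p-values, with the 5 smallest p-values of all members, and the 2 smallest in each list. INPP5J, PLCB1, PLCB3, PLCH1, PIK3C2B, PIK3CD, PIK3CG, PIK3R1, PIP4K2B, PITPNC1, PITPNM1, PITPNM2, PITPNM3, WIPI2, MDGA1, the untested genes, BECN1 and the genes with several rows were named after their values were seen. So were GPAA1, PIGF, PIGX, DAPP1 and WIPI1. Alternatives were other scalings and filters, limma 3.58.1 on log2(RPKM + 0.5) and 2 more pseudocounts, DESeq2 1.42.0, an offset for transcript length (loess, span 0.4), the replicate number as a block, and each library left out. Of the tested members 1 is not reported here by name or in the figures, and it stays in the counts. Figures were drawn with matplotlib 3.10.9.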

Additional observations from a re-analysis of the deposited data

How the results depend on the processing

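The members called by edgeR stayed at 0 in each direction under every edgeR and limma alternative, an adjusted p of 0.1 included. Over all rows the calls were 0 to 2 higher and 0 to 1 lower when single libraries were left out. DESeq2 called 103 rows higher and 8 lower. Leaving out single libraries in DESeq2, chosen after seeing the data, moved these counts: with QQ replicate 1 left out 76 rows were higher and 73 lower, with QQ replicate 2 left out 3 and 1, and with QQ replicate 3 left out 0 and 0. Leaving out WT replicate 1 gave 49 and 4, WT replicate 2 gave 694 and 154, and WT replicate 3 gave 152 and 8. Members were then called higher only without WT replicate 2 (5 rows, with PIK3C2A, PREX2 and both PDPK1 rows among them) and without WT replicate 3 (1 row, PIK3C2A). These 5 and 1 rows stand beside 694 and 152 called higher over the whole table, and no excess among the members was tested. The cause was not tested.

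The member median of 0.019 was 0.114 with library totals only, 0.101, 0.113 and 0.083 in limma with pseudocounts of 0.5, 0.1 and 1, -0.074 with the length offset, and 0.008 to 0.065 with single libraries left out. With the length offset the median of all rows was also -0.074. The members are longer than most rows, with a median of 3051 bp against 1974 bp. Their 14 higher rows had a median log2 fold change of 0.60 with the length offset, against 0.65. The longest of them changed more: PIKFYVE (10240 bp) went from 0.44 to 0.13 and PLCE1 (10144 bp) from 0.55 to 0.26. The 1514 bp row of PDPK1 went from 0.75 to 0.74. The count of 14 ran from 5 to 18 with single libraries left out. The count of 3 lower rows was 1 with library totals only, 5 with no filter, 1 with a mean of at least 2 RPKM, 1 in each limma fit, 6 with the length offset, and 0 to 7 with single libraries left out. Apart from library totals only, the shares of all rows at that p were not counted under these alternatives.

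Deviations of same-numbered embryos from their group means had correlations of -0.18, 0.20 and -0.05. Those of other pairs ran from -0.15 to 0.20. With 3 embryos in each group these values cannot settle whether the numbers pair embryos. With the replicate block the calls stayed at 0, at an unadjusted p under 0.05 13 members were higher and 1 was lower, and the median was 0.018. With the length offset and the replicate block they were 9 and 5, and the median was -0.056. The shares of all rows at that p were not counted in the block fits either.

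Of 31 named members 25 kept their sign under each of the 18 alternatives that gave them a value; 7 of the 31 had none under a mean of at least 2 RPKM. PIK3R2 turned to 0.006 with median-ratio factors and in DESeq2, 0.10 with library totals, 0.007 with a mean of at least 2 RPKM, and 0.090, 0.091 and 0.088 in limma, and ran from -0.167 to 0.151 with single libraries left out. With library totals PI4KA was 0.078, PI4K2A 0.069, WDR45B 0.021 and PLCG1 0.005. In limma PI4KA was 0.073, 0.074 and 0.072, PI4K2A 0.065, 0.066 and 0.063, WDR45B 0.022 and PLCG1 0.005 with each pseudocount. With single libraries left out PI4KA ran from -0.105 to 0.032 and PI4K2A from -0.062 to 0.018. PIP5K1A was -0.056 with the length offset, with and without the block, and ran from -0.022 to 0.071 with single libraries left out.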
